A study of Mus musculus with 2 samples.

Results

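The genes described here are 31 genes of the oligodendrocyte lineage and of myelin, out of 22182 genes detected on the arrays, where detected means well above background in at least 1 of the genotypes. They were chosen by name: every probe, apart from control probes, whose gene name on the array equals one of the listed symbols. This gave 57 probes, and all 31 genes had at least 1 probe well above background on both arrays. The genes fall into 2 precursor genes, 2 genes of newly formed oligodendrocytes, 5 transcription factors and 22 genes of mature cells, which are 12 myelin sheath genes, 3 genes of myelin lipid and acetate metabolism and 7 other genes.

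The values come from 2 single-colour microarrays of striatal RNA, 1 for WT and 1 for Cx30 KO mice. Cx30 is a gap junction protein of astrocytes, encoded by *Gjb6*. Each array holds the RNA of 2 male mice combined into 1 pool, taken on day 1 after MPTP, a toxin that destroys dopaminergic neurons. Both groups were 8 weeks old and received MPTP at 20 mg/kg in 4 injections spaced 2 h apart. For strain, the labels give C57BL/6J (WT) and Cx30-LacZ (Cx30 KO), a line in which *lacZ* was placed in the *Gjb6* locus so that all cells lack Cx30. According to the methods, WT controls were offspring of heterozygous matings that did not carry the mutation, which the strain entry does not show, and genotype and genetic background cannot be told apart. Mice given saline were not analysed here. The values therefore set the genotypes against each other after MPTP, and no response to MPTP was measured.

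Oligodendrocytes arise from precursor cells that carry the PDGF receptor alpha and the NG2 proteoglycan and that continue to divide in the adult brain. A precursor that leaves the cell cycle passes through a short premyelinating state and then wraps axons with myelin, a membrane rich in galactolipids and in a small set of abundant proteins. The striatum is crossed by myelinated bundles of the internal capsule, so its RNA holds transcripts of all these stages. Astrocytes and oligodendrocytes are joined by gap junctions, in which Cx30 of the astrocyte pairs with Cx32 of the oligodendrocyte.

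The signal of a probe is the processed signal of the scanner software in arbitrary units, after subtraction of the background, and ± is the error that the software gives for it. That error is about 10% of the signal for bright spots and does not cover the variation between mice. A log2 ratio gives Cx30 KO relative to WT, after each array was scaled to its 75th percentile (401.2 in WT and 381.8 in Cx30 KO), so that a negative value means less in Cx30 KO. Each gene is represented by its brightest probe. Each genotype has a single array (1) and no replicate, so no test was possible, no p-value is given, and a difference between the arrays cannot be set against the spread between animals. A gene is called lower at a ratio of 0.66 or less and higher at a ratio of 1.5 or more, which are the study's own limits for the ratio. Signals of different probes depend on the probe, so levels are not compared between genes.

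Within an array, 292 probes printed in repeated spots gave a spread (SD) of 0.058 in the log2 ratio between spots. Over 7096 genes with several probes, the spread between probes for the same gene was 0.25 (SD). No probe was saturated (0 on both arrays). The targeted gene *Gjb6* had 1788 ± 179 units in WT against 111 ± 11.6 in Cx30 KO (log2 ratio −3.94), which fits the labels of the arrays. The genes called lie on both sides for the array as a whole: 5.64% of the 22182 genes were called lower and 5.66% were called higher, and the median log2 ratio was 0.03.

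The sequences of 5 probes of 60 bases are shown because they span the range of the mature genes, from the gene with the lowest log2 ratio to one with almost no difference. They are written 5′ to 3′ as printed on the array, with capitals only for a repeat described below. Those of *Ugt8a*, *Opalin* and *Sirt2* cross an intron, since their mapped positions span 4065, 2579 and 1626 bases.
Ugt8a: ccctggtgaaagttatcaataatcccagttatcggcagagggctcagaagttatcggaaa
Opalin: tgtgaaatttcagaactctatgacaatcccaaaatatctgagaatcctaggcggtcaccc
Aspa: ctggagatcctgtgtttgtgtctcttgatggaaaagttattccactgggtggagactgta
Sirt2: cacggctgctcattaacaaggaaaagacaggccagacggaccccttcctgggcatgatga
Ermn: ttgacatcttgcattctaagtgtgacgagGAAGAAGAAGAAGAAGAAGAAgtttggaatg

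In build mm9 the *Ugt8a* probe lies at chr3:125570466-125574530 and the *Opalin* probe at chr19:41138452-41141030, both on the minus strand. The *Aspa* probe lies at chr11:73119051-73119110 on the minus strand, the *Sirt2* probe at chr7:29571001-29572626 on the plus strand, and the *Ermn* probe at chr2:57900470-57900529 on the minus strand. The log2 ratios of these probes were −1.52, −0.81, −0.51, −0.35 and −0.03 in that order. The *Ermn* probe, which had the smallest difference, is the only probe of that gene and holds 7 GAA repeats in a row, written in capitals. Whether the repeat affects its signal was not tested.

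As a group, the lineage and myelin genes had less signal in Cx30 KO than in WT. Of the 31 genes, 30 had a negative log2 ratio, beside 10062 of all 22182 genes. At the ratio limits, 15 were called lower (48.4%, beside 5.64% of all genes) and 0 were called higher (beside 5.66%). Their median log2 ratio was −0.59 beside 0.03 for all genes, and the values ran from −1.43 for *Ugt8a* to 0.10 for *Nkx6-2*. In 27 of the 31 genes the signal was lower in Cx30 KO by more than the spread between probes (0.25). That spread does not measure the variation between animals. The smallest of these differences was that of *Sirt2* (−0.29), and 16.3% of all genes had a log2 ratio below that of *Sirt2*. In bulk tissue, fewer oligodendrocytes and less of these transcripts per cell cannot be told apart.

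The limit falls within a dense stretch of values. Just inside it were *Mbp* (ratio 0.604), *Gsn* (0.618) and *Bcas1* (0.633), and just outside it were *Hapln2* (0.663), *Cnp* (0.670) and *Aspa* (0.703). The count therefore depends on where the limit is set, and with a ratio of 0.5 only 5 of the 31 genes were lower, beside 1.97% of all genes. When the study's Z-score limit was added, taken over the 1000 probes nearest in mean signal, 15 genes were again called, beside 3.26% of all genes. A Z-score over all probes left 1 gene, *Ugt8a*, beside 1.78% of all genes.

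**Figure D1:**
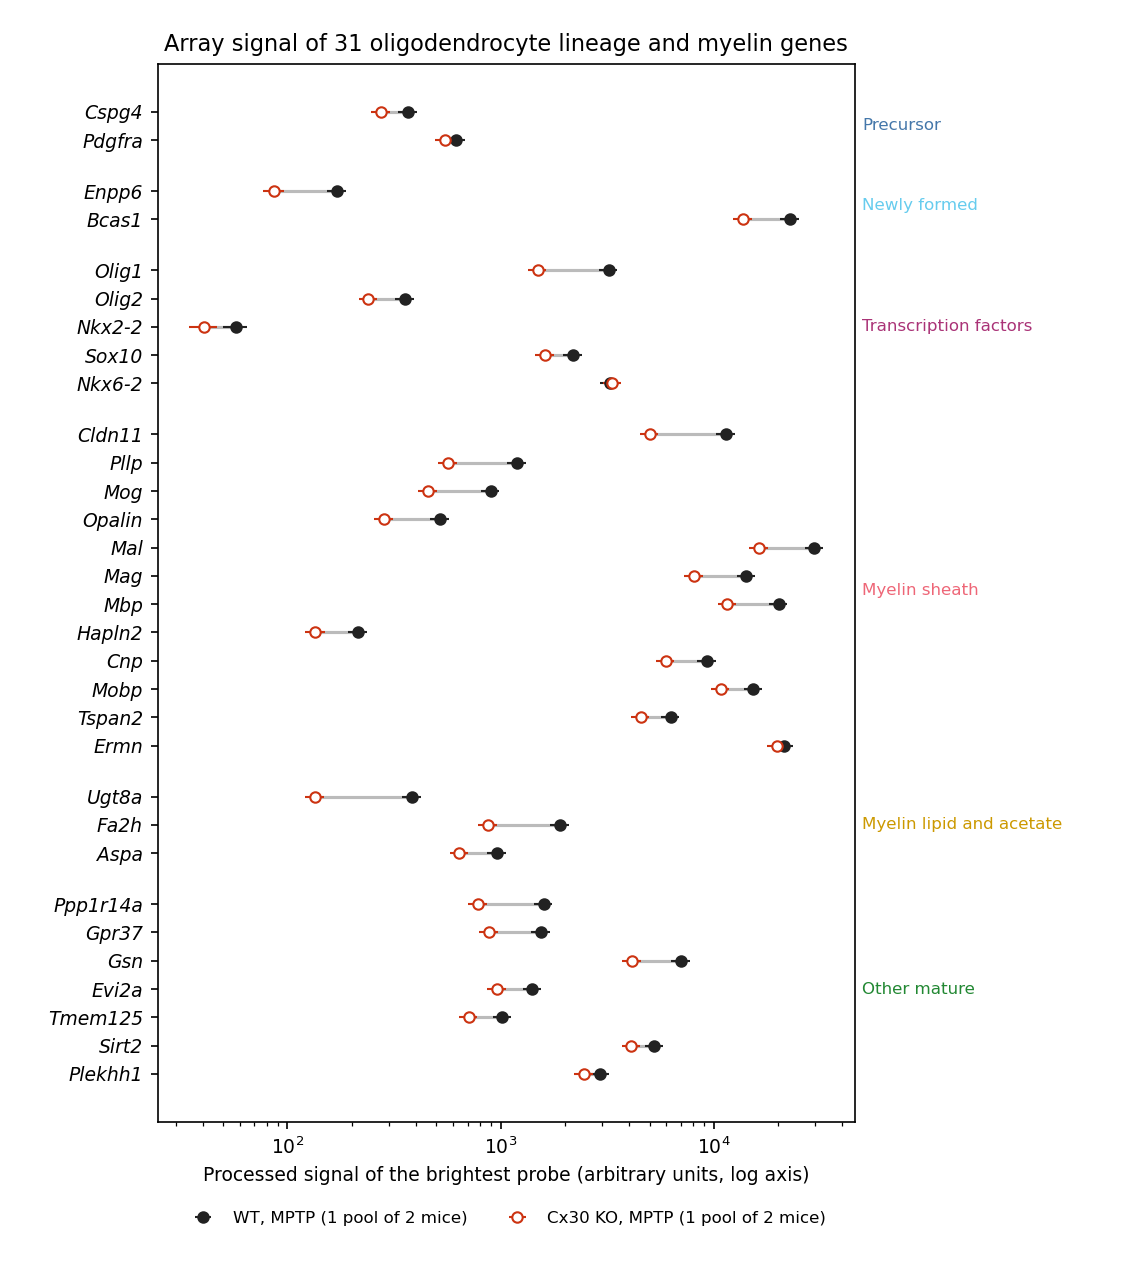
Processed signal of the brightest probe of each of the 31 genes on a log axis (arbitrary units), in WT (filled circles) and Cx30 KO (open circles), with the error given by the scanner software as bars, 1 pool of 2 mice for each genotype. The open circle lies to the left of the filled one for nearly every gene, with the widest gap at *Ugt8a* (383 against 135) and no visible gap at *Nkx6-2* (3271 against 3347).

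The precursor genes differed least. *Pdgfra*, the receptor for the mitogen that keeps precursors dividing, had 619 ± 62.1 in WT and 549 ± 55.0 in Cx30 KO (log2 ratio −0.10). A dim second *Pdgfra* probe, well above background only in Cx30 KO, went the opposite way (22.1 and 24.7, 0.23). Averaging both *Pdgfra* probes gave 0.06. *Cspg4*, which encodes the NG2 proteoglycan, had 368 ± 37.1 and 276 ± 27.9, a log2 ratio of −0.35. Neither gene was called, and their median was −0.22. Both genes are also expressed outside the lineage, *Cspg4* by pericytes and *Pdgfra* by perivascular fibroblasts, so part of their signal can come from other cells. Of the markers of these cells, 8 of 8 pericyte genes and 6 of 7 fibroblast genes were detected, with medians of −0.12 and −0.04. *Acta2* had 5238 and 5656, *Vtn* 2826 and 2517, *Dcn* 464 and 528, and *Col1a2* 349 and 373, and no gene of either list was called in either direction (0 lower, 0 higher).

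Both genes of newly formed oligodendrocytes were called lower. *Bcas1*, which marks early myelinating cells and is also found in mature myelin, had 22791 ± 2279 in WT and 13724 ± 1372 in Cx30 KO (log2 ratio −0.66). *Enpp6*, a choline phosphodiesterase that is high in cells that have just begun to differentiate, had 171 ± 17.8 and 86.9 ± 9.82, a log2 ratio of −0.90. The dimmer probes of both genes pointed the same way, with −0.50 for *Bcas1* and −0.60 for *Enpp6*. Each call depends on the setting: *Enpp6* had −0.56 with normexp background correction, and *Bcas1* had −0.58 with the mean of its probes and −0.50 with the dimmer one, all short of the limit. The median of the pair was −0.78.

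Among the 5 transcription factors only *Olig1* was called. *Olig1*, a basic helix-loop-helix factor needed for maturation and repair of myelin, had 3212 ± 321 in WT and 1491 ± 149 in Cx30 KO (log2 ratio −1.04). Its neighbour on chromosome 16, *Olig2*, which specifies the lineage, had 355 ± 35.8 and 240 ± 24.3, a log2 ratio of −0.49. *Sox10*, which drives many myelin genes directly, had 2192 ± 219 and 1611 ± 161, and *Nkx2-2*, a repressor active early in differentiation, had 57.2 ± 7.55 and 40.6 ± 6.04. Their log2 ratios were −0.37 and −0.42, neither of them past the limit, and the *Nkx2-2* probe was the dimmest of the 31 on both arrays. *Nkx6-2*, a homeobox factor of maturing oligodendrocytes, was the 1 gene that was not lower in Cx30 KO, with 3271 ± 327 and 3347 ± 335 and a log2 ratio of 0.10. The median of the factors was −0.42, so the factors lay between the precursor and the mature genes.

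The myelin sheath genes were lower in all 12 cases and called lower in 7, with a median of −0.73. *Cldn11*, the claudin of the tight junctions within myelin, had the lowest log2 ratio of the sheath genes, with 11423 ± 1142 in WT and 5001 ± 500 in Cx30 KO (−1.12). *Pllp*, the lipid raft protein plasmolipin, had 1195 ± 120 and 568 ± 56.9 (−1.0), and *Mal*, another proteolipid of myelin membrane traffic, had 29719 ± 2972 and 16339 ± 1634 (−0.79). *Opalin*, a sialylated protein of the paranodal loops, had 521 ± 52.3 and 283 ± 28.5 (−0.81). All 4 of these membrane proteins were called lower.

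The other 3 sheath genes called lower encode well known myelin proteins. *Mog*, on the outer face of myelin, had 899 ± 90.0 in WT and 455 ± 45.7 in Cx30 KO (−0.91), and its other probes had −0.69 and −1.05. *Mag*, the adhesion molecule of the inner face, had 14232 ± 1423 and 8105 ± 811 (−0.74). *Mbp*, which compacts the cytoplasmic faces, had 20162 ± 2016 and 11582 ± 1158 (−0.73), and a probe across an intron of the same transcript had −0.72. For *Mag* and *Mbp*, a probe designed for another annotated transcript went the opposite way, with 0.24 for *Mag* (146 and 164) and 0.12 for *Mbp* (6039 and 6235). Transcripts of a gene can differ in level, and whether these probes read other transcripts of the lineage was not tested.

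The other 5 sheath genes were not past the limit. *Hapln2*, a link protein of the matrix at nodes of Ranvier, had 214 ± 21.9 in WT and 135 ± 14.1 in Cx30 KO (−0.59). *Cnp*, the phosphodiesterase that keeps cytoplasmic channels in myelin open, had 9326 ± 933 and 5945 ± 594 (−0.58), while a dim probe for another transcript had 0.19 (40.0 and 43.4). *Mobp* had 15369 ± 1537 and 10779 ± 1078 (−0.44) at its brightest probe and −0.78 at a second probe designed for another transcript. *Tspan2*, a tetraspanin of differentiating cells, had 6276 ± 628 and 4537 ± 454 (−0.40). *Ermn*, an actin-binding protein of the cytoplasmic loops that appears late in myelination, had 21313 ± 2131 and 19813 ± 1981 (−0.03), so that it stood apart from the rest of the sheath genes.

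Of the 3 genes of myelin lipid and acetate metabolism, 2 were called lower, and the median was −1.05. *Ugt8a*, which had the lowest log2 ratio of the 31 genes, makes galactosylceramide, the most typical lipid of myelin, and had 383 ± 38.5 in WT and 135 ± 14 in Cx30 KO. This is a 2.70-fold lower signal, with a log2 ratio of −1.43 and with −1.52 at the probe shown above. *Fa2h* hydroxylates the fatty acids of the same lipid and had 1895 ± 190 and 872 ± 87.3, a log2 ratio of −1.05. *Aspa*, the aspartoacylase that releases acetate from N-acetylaspartate, was not called, with 959 ± 96.0 and 642 ± 64.3, a log2 ratio of −0.51. A probe for another *Aspa* transcript had −0.04.

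Of the 7 other mature genes, 3 were called lower. *Ppp1r14a*, an inhibitor of a protein phosphatase, had 1594 ± 159 in WT and 782 ± 78.3 in Cx30 KO (−0.96). *Gpr37*, an orphan receptor of differentiating oligodendrocytes, had 1544 ± 154 and 882 ± 88.3 (−0.74). *Gsn*, the actin-severing protein gelsolin, had 7043 ± 704 and 4143 ± 414 (−0.69) and −1.04 at its other probe. Less marked were *Evi2a* (1409 ± 141 and 963 ± 96.4, −0.48) and *Tmem125* (1021 ± 102 and 708 ± 70.9, −0.46), which both encode membrane proteins. A dimmer *Tmem125* probe, well above background only in WT, was lower by a factor of at least 2.92, and averaging both probes gave −1.05, past the limit. *Sirt2*, a deacetylase found in myelin, had 5274 ± 527 and 4112 ± 411 (−0.29, or −0.35 at the probe shown above), and *Plekhh1* had 2928 ± 293 and 2459 ± 246 (−0.18). The list as a whole had a median of −0.48.

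**Figure D2:**
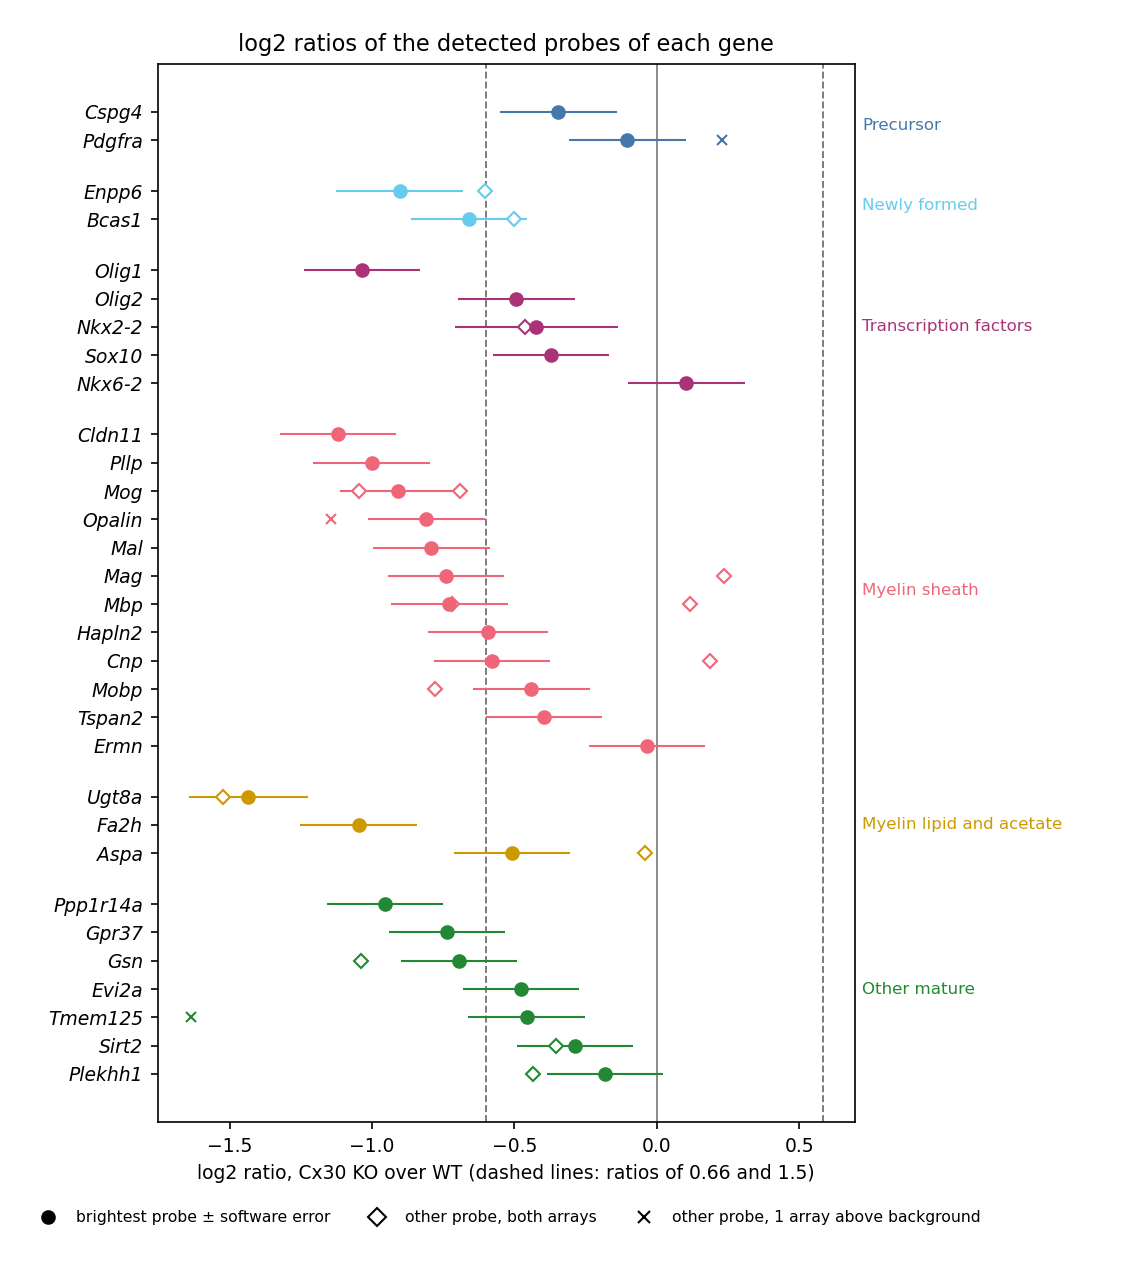
log2 ratio of Cx30 KO over WT for every detected probe of the 31 genes, grouped by list. Filled circles with bars are the brightest probes with the software error, diamonds are other probes well above background on both arrays, crosses are probes above background on 1 array, and dashed lines mark ratios of 0.66 and 1.5; the probes right of 0 belong to *Pdgfra*, *Nkx6-2*, *Mag*, *Mbp* and *Cnp*.

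Over the stages, the 22 mature genes were all lower in Cx30 KO, 12 were called, and their median was −0.71. The difference between this median and that of the precursor genes was −0.49. It rests on only 2 precursor genes, and the values of both groups overlap, since *Ermn*, *Plekhh1* and *Sirt2* had log2 ratios above that of *Cspg4*. The order of the medians was precursor, transcription factors, mature and newly formed, from the smallest to the largest difference. The order of the last pair turned with normexp (newly formed −0.61, mature −0.69) and, slightly, when the probes of a gene were averaged (both −0.67). Neighbours in this order overlap in their single genes.

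The probes of a gene mostly pointed the same way. Of the 57 probes, 46 were well above background on both arrays, 3 on 1 array and 8 on neither, and 42 of the 46 had a negative log2 ratio. In 13 genes with 2 or more such probes, the direction was shared in 10, and the exceptions were *Cnp*, *Mag* and *Mbp*, as given above. *Mag* had the widest gap between its probes, 0.98 on the log2 scale. The brightest probes lie on 15 chromosomes with at most 5 genes on 1 of them. On chromosome 14, which carries *Gjb6*, 0 of them lie. A knockout line can retain DNA next to the targeted gene from another strain. Probe positions cannot show whether such DNA affects genes on other chromosomes, and its part in these values was not tested.

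A wider list of 72 other genes of the lineage, of which 71 were detected, gave a similar picture. Of these, 31 were called lower (43.7%, beside 5.64% of all genes), 1 was called higher (1.41%, beside 5.66%), and the median was −0.53. The same shares of all genes stand beside the counts of each list that follows. Among the oligodendrocyte connexins, *Gjb1*, which encodes Cx32, the usual partner of Cx30, had 1606 ± 161 in WT and 805 ± 80.6 in Cx30 KO (−0.92) and was called lower. *Gjc3* (Cx29) had 299 and 240 (−0.25) at its brightest probe. A dimmer *Gjc3* probe had 95.5 and 58.7 (−0.63), past the limit.

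Among 13 further genes of myelin sheath and adhesion, which include the connexins, 8 were called lower, with a median of −0.65. *Anln* (−1.20) and *Tmem88b* (−1.11) were among the lowest of those called, and *Pmp22* (−0.60) and *Jam3* (−0.65) were closest to the limit among the genes called. Of 8 sphingolipid enzymes 3 were called, namely *Elovl7* (−0.86), which elongates fatty acids, *Gltp* (−0.83), which transfers glycolipids, and *Asah2* (−0.69), a ceramidase. The *Asah2* probe was dim (34.3 and 20.2), and a second *Asah2* probe had −0.19 (24.9 and 20.9). The median of the enzymes was −0.54, and all 8 were negative. *Sptlc2*, which starts the pathway in every cell type, had 0.00 to 2 decimals at its brightest probe. A second *Sptlc2* probe had −0.53 (169 and 111).

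In the stage lists outside the 31 genes, the median of mature markers was again below that of precursor markers. Committed and newly formed markers lay close to the precursor markers. Single genes of the lists overlapped, since precursor markers reached down to −1.09 and mature markers up to 0.05. Of 24 detected mature markers 15 were called lower, with a median of −0.75, against 2 of 11 precursor markers with a median of −0.31 and 2 of 9 committed and newly formed markers with a median of −0.32. The mature markers with the lowest log2 ratios were *Klk6*, a protease, with 786 ± 78.7 and 152 ± 15.7 (−2.30), *Trf*, the iron carrier transferrin, with 51486 ± 5149 and 12494 ± 1249 (−1.97), and *Cryab*, a small heat shock protein, with 8733 ± 873 and 2305 ± 231 (−1.85). *Cryab* is also made by astrocytes. Nearest to the limit among those called were *Josd2* (−0.67), *Lpar1* (−0.68) and *Ndrg1* (−0.74).

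The precursor markers called were *C1ql1* (52.5 and 23.5, −1.09) and *Pcdh15* (58.6 and 35.2, −0.66), both dim. *Lhfpl3* (645 and 408, −0.59) lay just outside the limit, while *Cacng4* (−0.07), *Vcan* (0.04) and *Xylt1* (−0.01) lay near 0. The part of other cells in the signal of the precursor markers was not tested. *Neu4*, a sialidase in both early lists, was called higher at one probe, at least 1.91-fold, and was below background in WT there. Its other probe had −1.39 and was below background in Cx30 KO, so no direction can be given. In the committed list *Rras2* (−0.80) and *Tmem163* (−0.64) were called lower. Of 9 further lineage transcription factors only *St18* was called (−0.63). *Myrf*, the factor that turns on the myelin genes, had 309 and 224 (−0.39), and the median of these factors was −0.01, which is near that of all genes.

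**Figure D3:**
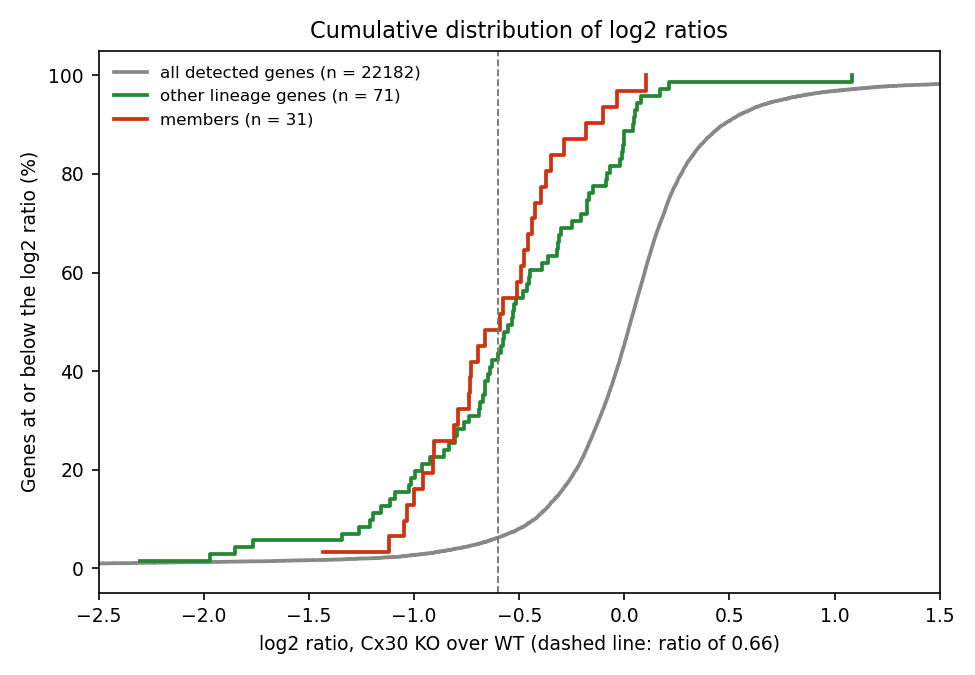
Cumulative share of genes (%) at or below each log2 ratio of Cx30 KO over WT, for the 31 genes, 71 other detected lineage genes and all 22182 detected genes. At the dashed line (ratio 0.66) the curve of the 31 genes stands at 48.4%, and the gene curves of the lineage lie left of the curve of all genes over most of the range.

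Other cells of the tissue are listed beside these values, since their share of the pools may differ. The defining genes of striatal spiny neurons were all detected on both arrays, 10 of 10, with a median of −0.05 and 0 genes called, and *Penk* had 163256 and 169777 and *Ppp1r1b* 136748 and 152978. These markers bear out the labelled tissue. Markers of excitatory neurons of the cortex, which lies next to the striatum, were higher in Cx30 KO in 8 of 8 cases and called in 7. *Neurod2* had 49.0 in WT and 594 in Cx30 KO, and *Tbr1* had 78.6 and 423. The summed signal of this list was 383 in WT and 1731 in Cx30 KO, with 3 of 8 genes above background in WT and 8 of 8 in Cx30 KO, and the median was 2.86. Setting the 5 genes below background in WT at their limit gives a median of 1.77. The part that a difference in dissection plays in the values of the lineage genes was not tested.

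Markers of reactive astrocytes were called lower in 5 of 5 cases, with a median of −1.62 and a summed level of 11207 in WT against 3473 in Cx30 KO. Both *Gfap* (6091 and 1881) and *Vim* (2758 and 967) encode intermediate filaments. General astrocyte markers had a median of −0.07, with 1 of 11 called, and *Aldoc* had 117074 and 106209 and *Glul* 21786 and 21043. For microglia, 4 of 10 genes were called lower, the median was −0.44, and the summed signal was 99068 and 89473, most of it from *Itgam* (60045 and 62438), the 1 gene of the list that was not lower. *Csf1r* had 12320 and 9170. The 4 genes called, named after their values were seen, were *P2ry12* (145 and 42.8, −1.69), *Aif1* (1991 and 998, −0.93), *Tmem119* (1114 and 569, −0.90) and *Cx3cr1* (5897 and 3527, −0.67). Lower signals in Cx30 KO were thus not confined to the oligodendrocyte lineage, and the part of reactive astrocytes or microglia in the values of the 31 genes was not tested.

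Of the other lists, pan-neuronal genes had a median of −0.14 with 2 of 8 called lower, *Nefm* and *Nefl*, whose values are given below. Endothelial genes had −0.15 with 1 of 7 called lower, and ependymal and choroid plexus genes −0.29 with 2 of 7 called lower. The 2 brightest genes of each list were not among those called. They were *Snap25* (51355 and 55091) and *Rbfox3* (29458 and 28625) for neurons, and *Ly6c1* (11625 and 9971) and *Cldn5* (3000.2 and 3506) for endothelium. For ependyma and choroid plexus they were *Rarres2* (1020 and 793) and *Foxj1* (335 and 366). Genes of peripheral myelin, which Schwann cells make, were detected in 3 of 6 cases, with a median of −0.05. Of these, *Ncmap* had 547 and 783 and was called higher, and 0 of the 3 were called lower.

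**Figure D4:**
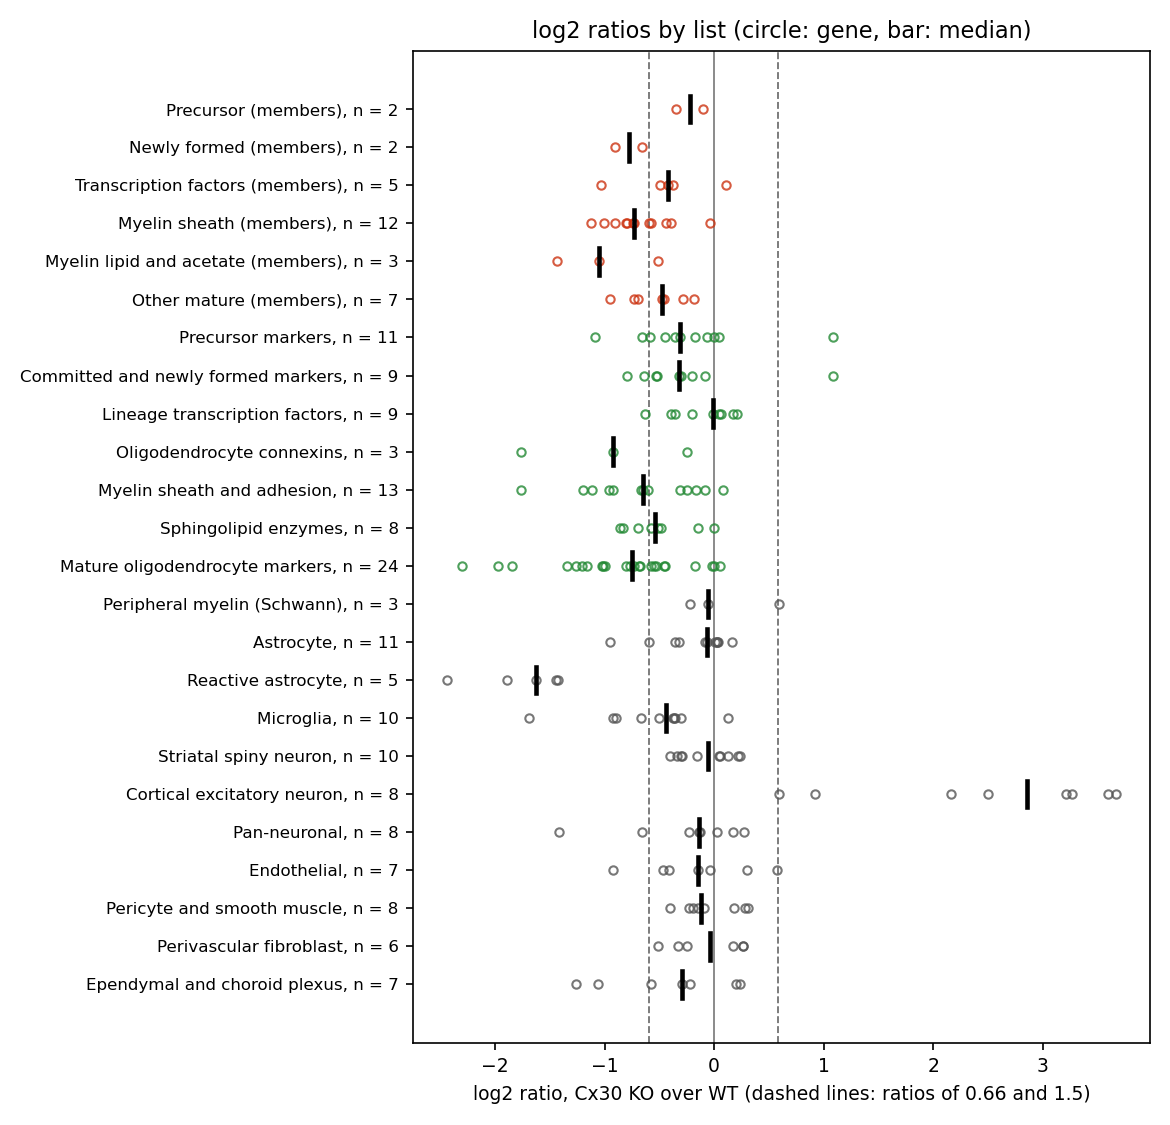
log2 ratio of Cx30 KO over WT for each detected gene (circles) and the median (bars) of each list: the 31 genes in red, other lineage genes in green, markers of other cells in grey. Dashed lines mark ratios of 0.66 and 1.5, and genes above background on 1 array are drawn at their measured value. The medians of the mature and myelin lists lie left of 0, with single genes of some of these lists right of 0. Reactive astrocyte genes lie left of 0 (median −1.62), and cortical excitatory genes lie far right (median 2.86).

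A sequence that SOX proteins bind, ACAAAG, was searched on both strands in the 250 bases before the start of each gene, because *Sox10* acts on many myelin genes. RefSeq windows were at hand for 25 of the 31 genes, 30 windows in all, and 6 of these (20%) held it, against 16.5% of 32851 windows of all genes. The genes were *Cnp*, *Mag*, *Mobp*, *Opalin* and *Tspan2*, of which 2 were called lower. The variant ACAATG was in 5 windows (16.7%, against 10.69% of all), and CAGCTG, a sequence bound by basic helix-loop-helix factors, was in 4 (13.3%, against 13.0%). For ACAAAG and CAGCTG the shares among these genes were near those of all windows. The gap was widest for ACAATG, but it rests on 5 windows. No test was run, and no excess is read from these counts. A pair of the windows is shown for how differently they carry the motif, in capitals on either strand: *Opalin* once and *Mobp* 6 times.
Opalin: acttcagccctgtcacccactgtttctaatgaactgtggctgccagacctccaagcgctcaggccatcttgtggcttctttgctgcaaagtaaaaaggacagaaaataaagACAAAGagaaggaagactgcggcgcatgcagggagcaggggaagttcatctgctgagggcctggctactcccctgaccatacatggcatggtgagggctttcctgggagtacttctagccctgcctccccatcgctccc
Mobp: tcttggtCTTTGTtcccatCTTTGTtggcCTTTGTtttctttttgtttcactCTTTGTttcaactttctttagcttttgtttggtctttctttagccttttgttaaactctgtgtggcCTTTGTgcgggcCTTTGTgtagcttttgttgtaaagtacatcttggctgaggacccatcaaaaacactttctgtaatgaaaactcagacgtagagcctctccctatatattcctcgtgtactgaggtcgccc
These sequences are from RefSeq in build GRCm38.p6, at chr19:41077114-41077363 on the minus strand for *Opalin* and chr9:120149492-120149741 on the plus strand for *Mobp*, each written 5′ to 3′ towards the gene. A match is a description of the letters and not a measured binding site.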

How the data were processed

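The authors deposited the scanner output of 2 Agilent arrays. Per the file headers, Feature Extraction 10.7.1.1 made the processed signals, linear intensities after background subtraction and detrending within an array, and probe positions refer to mm9. The submitters' processing notes name version 9.5.1.1. The authors also deposited a table of normalised intensities with 1 value for each probe, and 99.991% of these differ by less than 1% from processed signals after quantile normalisation.

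Control and outlier spots were left out, the log2 signals of a probe's spots were averaged, and each array was scaled to its 75th percentile. A probe was well above background when the software had marked 50% or more of its spots; there were 56605 probes, and WT had 32019 and Cx30 KO 32961 that passed. Where 1 array was below background, the ratio is a limit taken against either the gene's own signal or the lowest signal above background, whichever was higher. Older symbols were replaced through a RefSeq table. For members, the name on the array had to equal the symbol. The number of arrays, 1 for each genotype, limits the precision. The labels and the pooled design give no replicates.

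All 31 members are named, with oligodendrocyte connexins, *Myrf*, and in each other lineage list the 3 lowest and 3 highest log2 ratios past the limits, and in each marker list the 2 genes with the highest mean signal. Some genes that this rule covers are not reported here. *Sptlc2*, 4 microglia genes, the neurofilament genes and the precursor markers *Lhfpl3*, *Cacng4*, *Vcan* and *Xylt1* were named after their values were seen. The members and lists were chosen with earlier results of these data known. The alternatives were quantile normalisation, median scaling, normexp with an offset of 50 (limma 3.58.1), the authors' values, other filters on dim probes, other choices of a gene's probe, ratios of 0.5 and 2, and added Z-scores of 2 or more in size. The scripts (Python, pandas) were tested on simulated data.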

Additional observations from a re-analysis of the deposited data

How the results depend on the processing

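Each genotype had 1 array, so no replicate could be left out. No paired analysis was possible because there were no replicates to pair. The count of 15 members called lower became 5 with ratios of 0.5 and 2 (beside 1.97% of all genes) and 1 with a Z-score over all probes (beside 1.78%), and lay between 12 and 17 in the other 9 alternatives. The count of 31 other lineage genes called lower became 13 and 8 under the same pair of settings, and lay between 21 and 35 in the others. No member was called higher (0) in any of the 11 alternatives. The median of all members stayed between −0.64 and −0.48, that of the precursor genes between −0.27 and −0.14, newly formed between −0.83 and −0.55, mature between −0.76 and −0.53, transcription factors between −0.47 and −0.36, and other lineage genes between −0.58 and −0.42. The difference between the mature and the precursor median stayed between −0.53 and −0.31. With the probe nearest to 0 in place of the brightest, *Mbp* had 0.12 and *Mag* 0.24, which reverses their direction. By construction this setting takes the probe with the smallest difference. *Cnp* (0.19) and *Pdgfra* (0.06 at most) also changed sign, and the other 27 members kept theirs under the 8 alternatives for single genes. Over all genes, 5.64% were lower and 5.66% higher; with quantile normalisation these were 6.33% and 4.86%, with median scaling 6.5% and 4.72%, with normexp 2.57% and 1.63%, and without the filter on dim probes 7.21% and 9.72%. Dim genes such as *Nkx2-2* and *Enpp6* lie nearest to background, which limits their precision.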

Other observations

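Genes of the axon beneath the myelin sheath, a list of 10 genes put together after the values were seen, had a median log2 ratio of −0.12, and 0 were called in either direction. *Cntnap1* and *Cntn1*, the axonal partners of the paranodal loops, had 4151 in WT and 3381 in Cx30 KO (−0.22) and 12712 and 10606 (−0.19). The potassium channel genes *Kcna1* and *Kcna2* had −0.06 and −0.37, and *Scn8a*, the sodium channel of nodes, had −0.02. *Ank3*, which anchors channels at nodes, had the lowest value of the list (−0.41). Of the neurofilament genes, which are abundant in myelinated axons, *Nefm* had 12732 and 4545 (−1.41) and *Nefl* 13978 and 8413 (−0.66), and both were called lower, while *Nefh* had 3034 and 2469 (−0.23).

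Genes for signals that act on the lineage, a list of 12 genes also put together after the values were seen, had a median of −0.20, with 1 called lower. *Pdgfa*, the ligand of the precursor receptor, had 5037 and 4488 (−0.09), and *Igf1*, a growth factor for maturing cells, had 676 and 629 (−0.03). *Shh*, which specifies the lineage in development, had 189 and 105 (−0.77) and was the gene called. *Cntf* had −0.54 and *Lif* −0.56. *Lingo1*, which holds back myelination, had 472 and 605 (0.43).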
